A study of Mus musculus with 24 samples.

Results

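The middle of the wild-type mouse intestine was set against its proximal and distal ends. The difference was the mean of segments 2 and 3 minus the mean of segments 1 and 4, taken for each of 15267 genes on 12 of the 24 arrays of the study. These were 6 middle arrays (3 each of segments 2 and 3) and 6 end arrays (3 each of segments 1 and 4) of wild-type C57BL/6 males aged 3 to 3.5 months. The same segments of Amacr-/- males of that strain and age gave 12 further arrays, 3 per segment, on which the same difference was taken. Amacr encodes alpha-methylacyl-CoA racemase, which acts in bile acid synthesis and branched fatty acid breakdown. Each intestine had been rinsed, opened and divided into 4 segments of equal size, and total RNA came from the scraped lining. A gene was called where its adjusted p was under 0.05 (limma over all 24 arrays, Benjamini-Hochberg over all genes). A called gene is termed a peak or a dip where, in addition, both middle segment means lay on the same side of both end means.

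The small intestine changes its work along its length. The duodenum, next to the stomach, takes up iron and calcium, the jejunum absorbs most fat, sugar and amino acids, and the ileum recovers bile acids and vitamin B12. A plain gradient from one end to the other largely cancels in a difference of middle and ends, so the comparison picks out genes that are high or low in the central stretch, along with genes switched on at 1 end alone. The shape requirement removes part of the second kind, but a gene set apart at 1 end can still meet it by a small margin. With a margin of 0.5 on the log2 scale, 13 peaks and 13 dips remained.

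The labels describe the scraped cells as endothelial. Epcam, an epithelial adhesion molecule, lay between 13.36 and 13.95 on the log2 scale in the 12 wild-type arrays, and Vil1, villin of the brush border, between 13.36 and 13.60. The mean of 15 vessel endothelium markers lay between 5.18 and 5.60, and array medians between 6.06 and 6.16. The segment labels followed known regional genes: Pdx1, the duodenal homeobox gene, averaged 6.83 in segment 1 and 4.40 in segment 4, and Slc10a2, the ileal bile acid transporter, averaged 4.40 and 11.35. In the knockout arrays Amacr averaged 4.96 to 5.34 by segment, against 7.03 to 8.42 in wild-type arrays. It did not pass the test between middle and ends in the wild-type (-0.06, SE 0.13, adjusted p = 0.82).

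Among the wild-type arrays, 4 stood apart within their groups. Segment 1 replicate 1 had exocrine pancreas markers 2.54 above the mean of all arrays. Segment 2 replicate 3 had smooth muscle markers 2.40 and fat cell markers 1.58 above it. Segment 4 replicate 3 lay nearer to segment 3 than its partners: on a scale with the mean of segment 3 at 0 and that of segment 4 at 1, it stood at 0.56 and the other replicates at 1.26 and 1.04. Segment 3 replicate 3 had Paneth cell markers 1.77 above the mean of all arrays, against 0.12 and -0.88 in its partners. The counts of calls without the arrays high in pancreas, muscle and fat markers are given beside the gene lists they moved. The plot of marker means shows the arrays high in pancreas, muscle and fat markers.

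**Figure D1:**
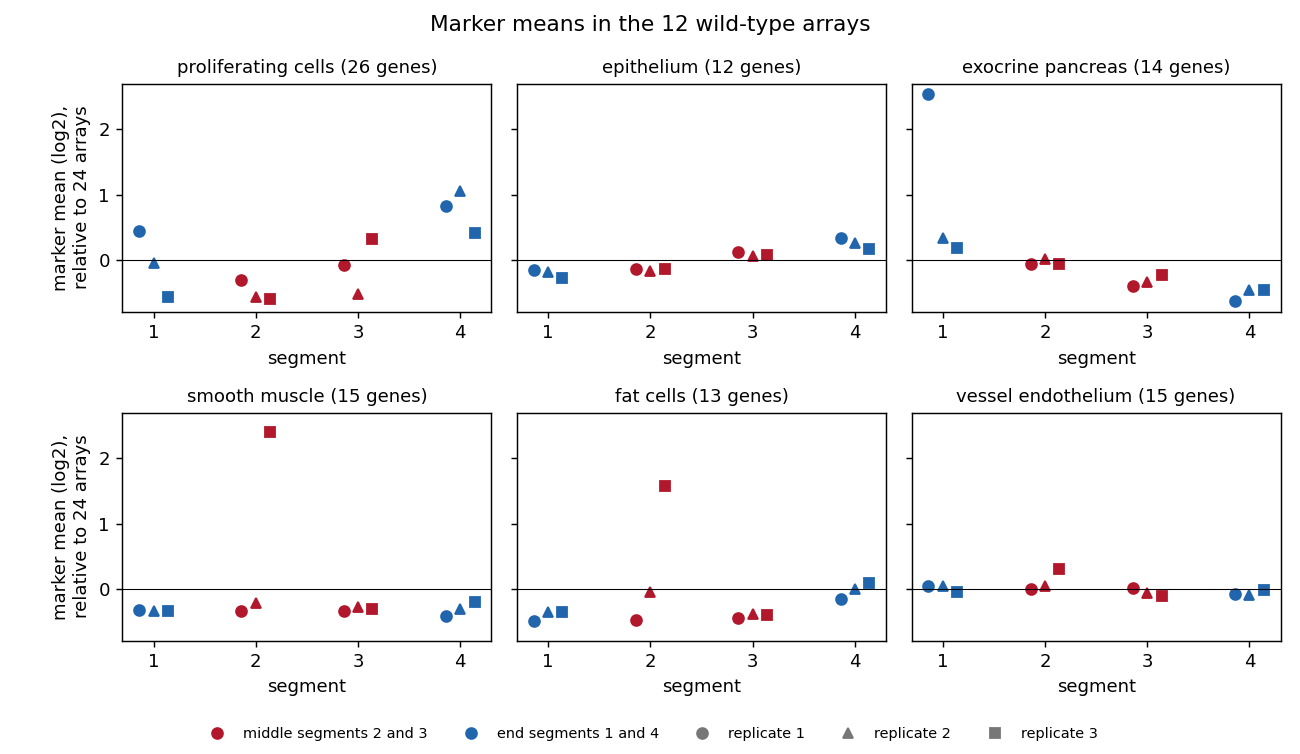
Mean log2 level of 6 marker lists in each wild-type array, relative to the mean of all 24 arrays, by segment 1 to 4; red, middle segments; blue, end segments; symbols, replicates 1 to 3. Segment 1 replicate 1 lies at 2.54 for exocrine pancreas and segment 2 replicate 3 at 2.40 for smooth muscle, and proliferation markers are highest on average in segment 4.

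In all, 601 genes (3.94% of those tested) differed between the middle and the ends, 296 higher (1.94%) and 305 lower (2.0%). With the shape requirement there were 149 peaks (0.976%) and 204 dips (1.34%), together 2.31% of genes. Most of these differences were small: 102 peaks and 117 dips differed by under 0.5 on the log2 scale, and 9 peaks and 14 dips by at least 1. All 3 differences per replicate number ran in the called direction for 145 peaks and 201 dips. The 6 middle arrays lay wholly above the 6 end arrays for 38 peaks, against 0.524% of all genes, and wholly below them for 41 dips, against 0.504%. Peaks and dips were called on these same values, so the agreement of the differences and of the arrays follows in part from the selection. The shape alone, without a test, was met by 18.8% of all genes for a peak and 13.2% for a dip.

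The counts depended on the scaling and on single arrays. After median centring 417 genes were higher and 233 lower (234 peaks and 145 dips), which moved the share of higher calls to 64.2%, against 49.3% here. Without the arrays high in pancreas, muscle and fat markers, 119 genes were higher and 115 lower, with 208 of the 601 calls kept. Of the 12 largest peaks 7 kept their call there (not Arl14, Bco1, Maob, Rragd and Slc5a4b), and of the 12 largest dips 7 (not Atp2b1, Capg, Pclaf, Rrm2 and Tlr1). With each of the 12 wild-type arrays left out in turn, between 255 genes (without segment 3 replicate 2) and 969 (without segment 3 replicate 3) were called. When limma was given only the 3 differences per replicate number, 1 gene was higher (Rragd) and 13 were lower, with Capg, Slc13a1 and Oxct1 among the dips. The labels call the samples biological replicates, and p-values measure the spread between these samples.

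Few peaks or dips differed past the threshold between the middle segments, and more did between the ends. Among the peaks, segment 2 had the higher mean in 74 genes and segment 3 in 72, and segments 3 and 2 differed past the threshold in 1; among all genes 0.721% were higher and 1.34% lower in segment 3. The lower end was segment 4 in 94 peaks and segment 1 in 55. Past the threshold, 44 peaks were lower in segment 4 than in segment 1, and 11 were higher; among all genes 13.6% were lower and 10% higher. Dips leaned the other way: segment 4 had the higher mean in 141 and segment 1 in 63, with 52 and 14 of these past the threshold. A further 147 higher genes lacked the shape, 120 of them because segment 1 was as high as a middle segment, and 101 lower genes lacked it. At the border of the requirement, the peaks Lrba and Pgm3 cleared it by 0.003, while Lct tied with segment 1 and missed it.

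The largest peak was Npl, the lyase that splits sialic acid into N-acetylmannosamine and pyruvate. Its level was 8.12, 8.54 and 9.68 in segment 2 and 9.91, 10.18 and 10.20 in segment 3, against 5.86, 6.00 and 6.52 in segment 1 and 6.77, 7.51 and 9.83 in segment 4. Segment 1 was low in every array, while segment 4 replicate 3 reached the level of segment 3, so that the groups overlapped through that array. The middle exceeded the ends by 2.36 (SE 0.36, adjusted p = 0.00121). A list of 14 measured genes of sialic acid metabolism, Npl among them, was made after values were seen. Of these, 7 had a positive and 7 a negative difference, with a median of 0.004 (0.02 over all genes). In the list 3 were called higher and 2 lower, where 1.94% and 2.0% of all genes were. Siae, which removes acetyl groups from sialic acid, was a peak (0.49, adjusted p = 0.048), and Slc17a5, which exports sialic acid from lysosomes, was higher without the shape (0.60, adjusted p = 0.016). Cmas, which activates sialic acid for transfer to glycans, was a dip (-0.44, adjusted p = 0.00148). So was Slc35a1, which carries the activated form into the Golgi (-0.35, adjusted p = 0.021). Npl and Cmas kept their calls with each wild-type array left out. Siae and Slc35a1 lost theirs without any 1 of 7 arrays, and Slc17a5 without any 1 of 3. The Npl promoter, from RefSeq on GRCm38.p6 (chr1:153549665-153549964, minus strand, 250 bases before to 50 after the start site), is shown because it holds a palindromic E box, in capitals:
Npl: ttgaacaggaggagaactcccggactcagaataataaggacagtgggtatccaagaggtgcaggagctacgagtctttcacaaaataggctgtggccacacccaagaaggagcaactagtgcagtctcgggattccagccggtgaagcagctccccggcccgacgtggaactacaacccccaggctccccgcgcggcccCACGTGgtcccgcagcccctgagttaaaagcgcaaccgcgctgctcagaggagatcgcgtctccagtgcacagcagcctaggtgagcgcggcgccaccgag
The E box (CACGTG) was in 17.7% of the 147 promoter windows of 114 matched peaks and in 9.01% of the 15474 windows of all 12273 matched genes. In the 218 windows of 173 matched dips its share was 7.34%.

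The next 2 peaks by size were carriers of the apical membrane. Slc23a1, the sodium-dependent vitamin C transporter of the brush border, was at 9.29, 8.92 and 8.95 in segment 2 and 8.49, 8.85 and 8.51 in segment 3, against 7.91, 8.03 and 8.90 in segment 1 and 5.35, 5.91 and 7.05 in segment 4. Segment 4 lay far below the middle, and segment 1 overlapped it through replicate 3 alone. The difference was 1.64 (SE 0.24, adjusted p = 0.000927). Slc5a12, a sodium-coupled carrier of lactate and other short acids, averaged 11.27 in the middle and 9.88 at the ends (1.40, SE 0.24, adjusted p = 0.00276). Slc5a4b, of the sodium/glucose carrier family, differed by 1.19 (adjusted p = 0.041), and Bco1, which cleaves beta-carotene to retinal, by 1.22 (adjusted p = 0.028). Other carriers ran differently. Of 17 vitamin genes 3 were higher and 2 lower (the folate and thiamine carriers Slc19a1 and Slc19a3), where 1.94% and 2.0% of all genes were. Slc16a9, of the monocarboxylate transporter family, was lower through segment 1 (-1.78, adjusted p = 0.000441). Bco1 was lowest in segment 1 (5.65 to 5.91) and Slc5a4b in segment 4 (7.50 to 9.60).

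Several sphingolipid enzymes were peaks. Sgpl1, the lyase that ends the pathway by splitting sphingosine 1-phosphate, was at 11.29, 11.24 and 11.19 in segment 2 and 11.28, 11.32 and 11.11 in segment 3, against 10.31, 10.53 and 10.70 in segment 1 and 9.77, 9.88 and 10.40 in segment 4. All 6 middle arrays lay above all 6 end arrays (0.97, SE 0.12, adjusted p = 0.000233). Asah2, the neutral ceramidase of the brush border, did so too: its lowest middle array was at 11.70 and its highest end array at 11.43 (0.97, SE 0.13, adjusted p = 0.000382). Ugcg, which makes glucosylceramide, and Cerk, ceramide kinase, were peaks of 0.56 and 0.49 (adjusted p = 0.0083 and 0.00557). Sgpp1, which removes the phosphate of sphingosine 1-phosphate, went the other way and was a dip of -1.04 (adjusted p = 0.00928). Of 38 measured sphingolipid genes, in a list made after these values were seen, 6 were higher and 3 lower, where 1.94% and 2.0% of all genes were. The median was 0.02, the same as over all genes.

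The remaining peaks named by size were Rab30, a Golgi small GTPase (1.30, adjusted p = 0.024), Susd2, a membrane protein with a sushi domain (1.11, adjusted p = 0.00226), Arl14, an ARF-like GTPase (1.08, adjusted p = 0.011), Maob, a monoamine oxidase (1.01, adjusted p = 0.041), and Rragd, a Rag GTPase of the mTORC1 nutrient pathway (0.93, adjusted p = 0.011). Susd2 had both ends below the middle, with 10.91, 11.25 and 10.39 in segment 2 and 10.98, 11.34 and 10.45 in segment 3, against 9.61, 9.21 and 9.53 in segment 1 and 9.75 to 10.54 in segment 4. Only segment 4 replicate 3 reached into the range of the middle. Of the 12 largest peaks, 8 stayed called with each wild-type array left out. Rab30, Bco1, Slc5a4b and Maob did not: each lost its call without any 1 of several arrays, and the adjusted p rose as far as 0.114 for Slc5a4b and Maob, without segment 1 replicate 1, 0.078 for Rab30, without segment 4 replicate 1, and 0.088 for Bco1, without segment 4 replicate 2.

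**Figure D2:**
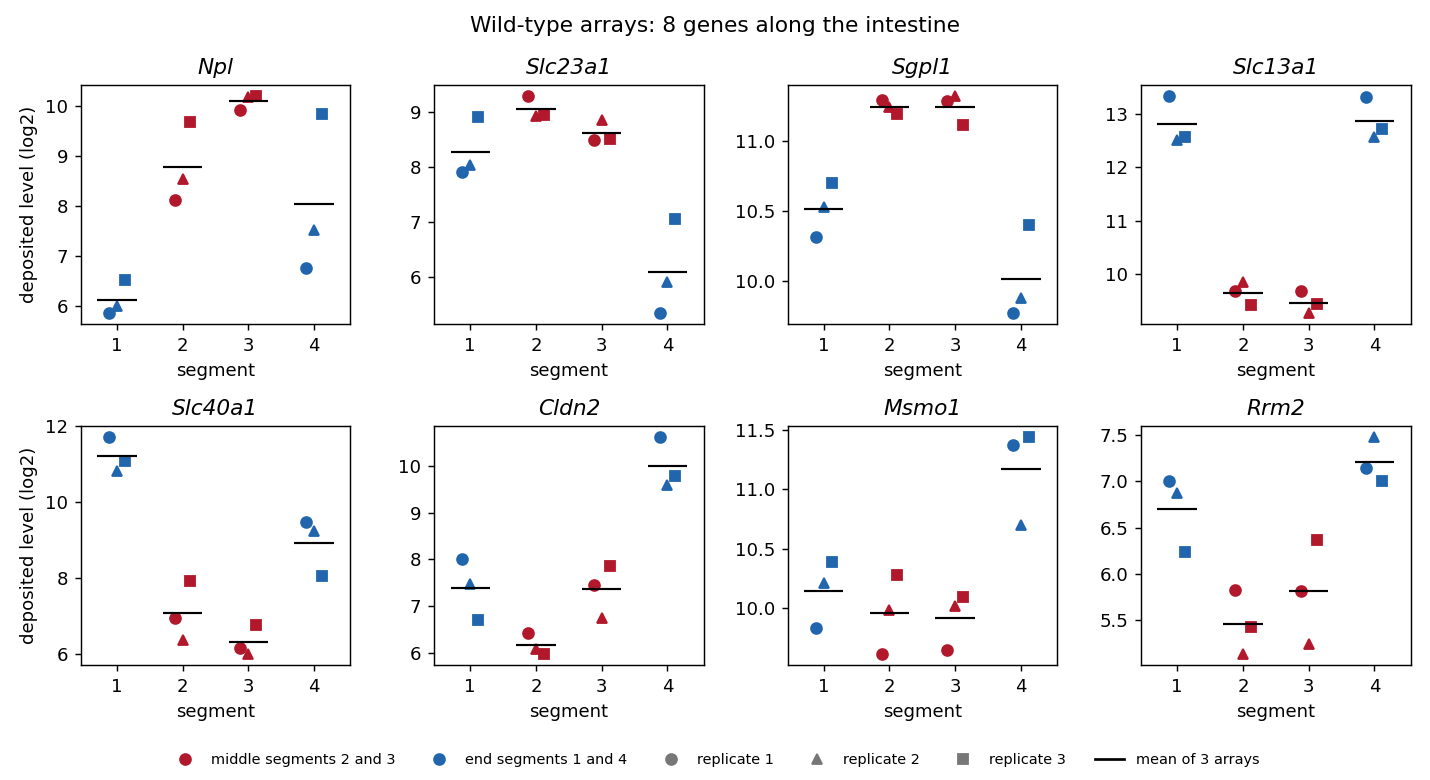
Deposited log2 levels of 8 genes in the 12 wild-type arrays, by segment 1 to 4; red, middle segments 2 and 3; blue, end segments 1 and 4; symbols, replicates; line, means of 3 arrays. Sgpl1, Slc13a1 and Slc40a1 show middle and end arrays that do not overlap, and Npl shows segment 4 replicate 3 at the level of segment 3.

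Slc13a1, the sodium-sulfate cotransporter of the brush border, was the clearest dip. Its level was 9.70, 9.86 and 9.43 in segment 2 and 9.70, 9.28 and 9.45 in segment 3, against 13.33, 12.51 and 12.57 in segment 1 and 13.30, 12.57 and 12.72 in segment 4. Both ends were alike and every end array lay above every middle array. The difference was -3.26 (SE 0.26, adjusted p = 6.06e-07), a fold of 9.6 if the values are read as log2. It was the single gene called at all 4 boundaries between a middle and an end segment (adjusted p = 0.000623, 0.00655% of genes); 50 dips and 56 peaks met that test at an unadjusted p under 0.05. Without the 2 arrays high in other tissue markers, the p over all 4 boundaries was 0.096 after adjustment, while the difference stayed at -3.07 (adjusted p = 2.24e-05). Leaving out replicate 1 or 3 in all segments gave 0.133 and 0.127 over the 4 boundaries. Suox, the mitochondrial enzyme that oxidises sulfite to sulfate, was also lower in the middle but without the shape: it averaged 7.55 in segment 2 and 9.38 in segment 3, against 6.99 in segment 1 and 12.31 in segment 4 (-1.19, SE 0.13, adjusted p = 6.32e-05).

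The largest dip in size was Slc40a1, ferroportin, which exports iron from the enterocyte to the blood. It was at 6.95, 6.37 and 7.92 in segment 2 and 6.16, 5.98 and 6.76 in segment 3, against 11.72, 10.83 and 11.10 in segment 1 and 9.47, 9.25 and 8.06 in segment 4. Segment 1 stood highest, and segment 4 was above every middle array, narrowly in replicate 3. The difference was -3.38 (SE 0.50, adjusted p = 0.000991). Of 20 measured genes for iron, haem and copper, Slc40a1 and the zinc exporter Slc30a1 were lower and none was higher. Among all genes 2.0% were lower and 1.94% higher. Of 15 measured genes for calcium, phosphate and vitamin D, 5 were lower and 1 higher (2 and 0 without the arrays high in other tissue markers); among them S100g and Atp2b1 handle calcium. The dip was Atp2b1, the calcium pump of the basolateral membrane: 8.60, 8.78 and 8.69 in segment 2 and 8.62, 8.41 and 8.57 in segment 3, against 10.58, 9.54 and 9.92 in segment 1 and 9.79, 9.39 and 9.37 in segment 4. The groups did not overlap (-1.15, SE 0.28, adjusted p = 0.023). S100g, the calcium-binding protein calbindin-D9k, and Akp3, an intestinal alkaline phosphatase, were lower through segment 1 alone (-2.83 and -2.38, adjusted p = 0.038 and 0.042). Slc34a2, the phosphate cotransporter, was higher because segment 1 was low (1.22, adjusted p = 0.049). S100g lost its call in 9 of the 12 fits without 1 wild-type array, and Akp3 and Slc34a2 in 10.

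Cldn2, the claudin that forms a cation pore between epithelial cells, averaged 6.16 in segment 2 and 7.36 in segment 3, against 7.40 in segment 1; segment 4 held the highest values, between 9.59 and 10.62 (-1.94, SE 0.32, adjusted p = 0.00197). Its dip therefore rested mainly on segment 4. Slc6a14, a broad amino acid carrier, met the shape by 0.003 only: it was between 3.81 and 4.10 in all arrays of segments 1, 2 and 3, and at 8.90, 6.74 and 6.07 in segment 4 (-1.67, adjusted p = 0.00718). Oxct1, the enzyme that lets cells burn ketone bodies, was a dip with both ends high, at 9.35, 8.95 and 8.88 in segment 2 and 8.75, 8.20 and 8.57 in segment 3, against 10.66, 9.73 and 9.84 in segment 1 and 10.46, 10.18 and 9.88 in segment 4. The groups did not overlap (-1.34, SE 0.20, adjusted p = 0.00131). Tspan12, a tetraspanin, fell by 1.54 (adjusted p = 0.00473) and Capg, an actin filament capping protein, by 1.42 (adjusted p = 0.018), again without overlap. Akr1c14, an aldo-keto reductase of a family with near-identical copies, fell by 1.12 (adjusted p = 0.033) and Tlr1, a receptor for bacterial lipopeptides, by 1.10 (adjusted p = 0.046). Of the 12 largest dips, 6 stayed called with each array left out. Tlr1 lost its call without 11 of the 12 arrays, Akr1c14 without 8, Atp2b1 and Pclaf without 4, Capg without segment 1 replicate 1 or segment 2 replicate 2, and Rrm2 without segment 3 replicate 2; the highest adjusted p was 0.126, for Tlr1.

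**Figure D3:**
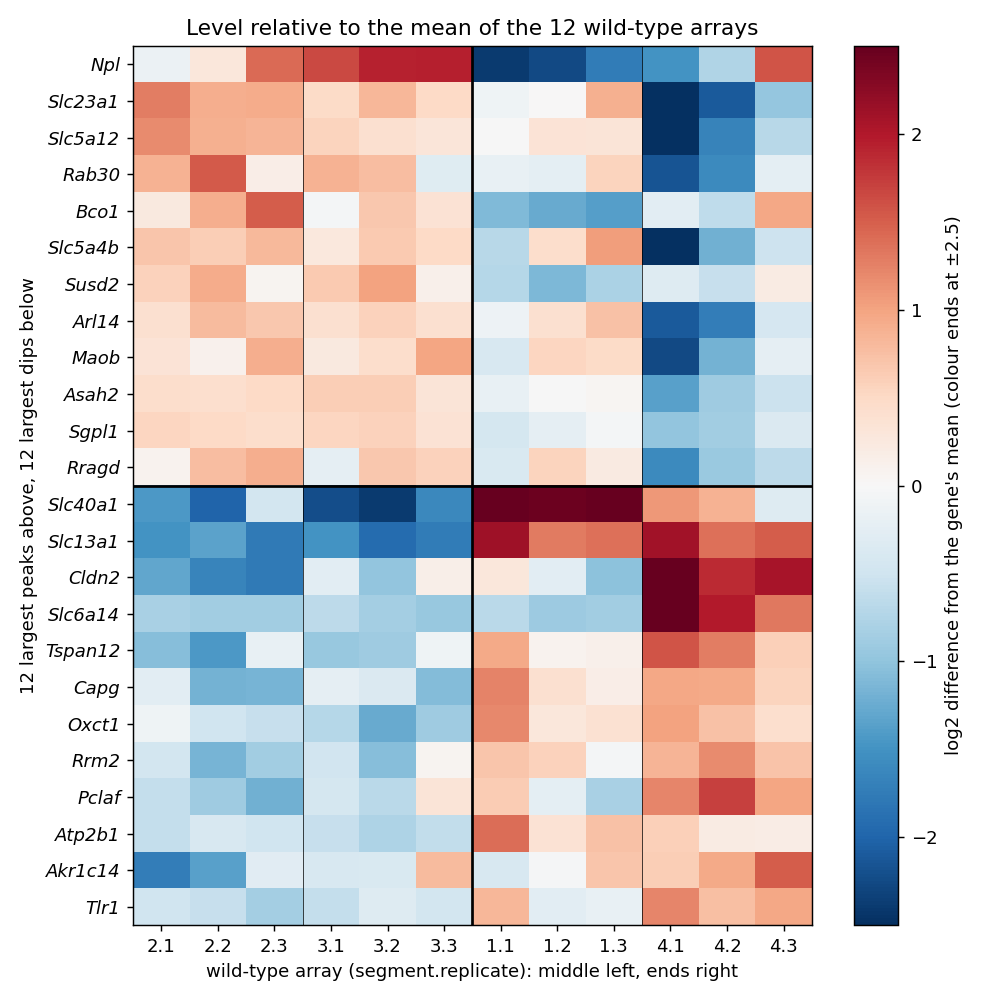
Log2 level of the 12 largest peaks (above) and the 12 largest dips (below) relative to each gene's mean over the 12 wild-type arrays; columns are arrays written as segment and replicate, middle at left, ends at right; red is higher and blue lower, with the colour scale ending at 2.5. Several peaks are low in segment 4 alone, such as Slc5a4b and Maob, while Slc13a1 and Oxct1 are high at both ends.

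Of 26 measured proliferation markers, 5 were lower in the middle, all of them dips, where 1.34% of all genes were dips. Rrm2, the small subunit of ribonucleotide reductase, was at 5.83, 5.13 and 5.43 in segment 2 and 5.82, 5.24 and 6.37 in segment 3, against 7.0, 6.87 and 6.24 in segment 1 and 7.15, 7.48 and 7.01 in segment 4. Only segment 3 replicate 3 and segment 1 replicate 3 crossed (-1.32, SE 0.29, adjusted p = 0.015). Pclaf, a partner of the replication clamp, was a dip of -1.16 (adjusted p = 0.020). These dips were Rrm2, Mcm6, Mcm4, Mcm7 and Rrm1, subunits of ribonucleotide reductase and of the replicative helicase. No marker was higher, and all 26 had a negative difference, with a median of -0.62, against 0.02 over all genes. A list of 50 DNA replication and repair genes was made after values were seen and holds these 5 dips and Pclaf. In it 16 were dips and 47 negative, where 6553 of all 15267 genes were negative. Without the arrays high in other tissue markers 1 was lower. A list of 49 ribosome biogenesis genes was also made after values were seen. Of these 7 were dips, among them Nhp2 (-0.93) and Dkc1 (-0.85) of the box H/ACA particle, and all 49 were negative. None was lower without those arrays. The 13 measured ribosomal proteins had a median of -0.36 with none called, and medians of -0.29, -0.10 and -0.65 without replicate 1, 2 and 3.

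By array, the mean of the proliferation markers relative to all arrays was -0.31, -0.56 and -0.60 in segment 2 and -0.07, -0.52 and 0.32 in segment 3, against 0.44, -0.05 and -0.57 in segment 1 and 0.82, 1.06 and 0.41 in segment 4. Segment 4 was high in all 3 arrays, and segment 1 spread across the range of the middle. Without the arrays high in other tissue markers no proliferation marker was called (median -0.48); the array of segment 1 left out there was also the highest of its group in these markers. Without replicate 1, 2 or 3 in all segments the median was -0.52, -0.42 and -0.89. The mean of 3 Paneth cell markers, which are made at the crypt base, was -1.12, -1.49 and -0.96 in segment 2 and 0.12, -0.88 and 1.77 in segment 3, against -0.90, -1.33 and -1.80 in segment 1 and 1.34, 2.19 and 0.85 in segment 4. Segment 4 was high in these too, as was segment 3 replicate 3, and their part in the result was not tested. In RNA from a whole scraped layer, fewer cells of a type and less RNA per cell cannot be told apart. The promoter of Mcm6, a helicase subunit that was a dip (-0.94, adjusted p = 0.022), is shown with E2F and CCAAT letters in capitals (RefSeq, GRCm38.p6, chr1:128359656-128359955, minus strand):
Mcm6: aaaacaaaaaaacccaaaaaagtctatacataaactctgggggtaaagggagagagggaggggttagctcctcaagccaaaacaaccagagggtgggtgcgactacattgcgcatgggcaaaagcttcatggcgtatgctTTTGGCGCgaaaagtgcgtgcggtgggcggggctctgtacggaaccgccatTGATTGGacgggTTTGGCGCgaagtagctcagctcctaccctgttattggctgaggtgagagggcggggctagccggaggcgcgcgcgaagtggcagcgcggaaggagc
E2F letters (TTTCCCGC or TTTGGCGC) were in 7.34% of windows of dips, 2.72% of windows of peaks and 2.39% of all windows; for the proliferation markers it was 4 of 24 windows.

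Cholesterol synthesis was also lower in the middle. Of 17 measured enzymes and regulators 11 were lower, 6 of them dips, where 2.0% of all genes were lower. None was higher, and the median was -0.50. The dips with the largest differences were Msmo1 (-0.72, adjusted p = 0.015), Nsdhl (-0.61, adjusted p = 0.00136), Lss (-0.58, adjusted p = 0.00738) and Tm7sf2 (-0.58, adjusted p = 0.000507), all enzymes of the steps from squalene epoxide to cholesterol. Msmo1 was at 9.61, 9.98 and 10.28 in segment 2 and 9.65, 10.02 and 10.09 in segment 3, against 9.83, 10.21 and 10.39 in segment 1 and 11.37, 10.70 and 11.44 in segment 4. The rise was in segment 4, and segment 1 overlapped the middle. Tm7sf2 cleared the shape by 0.007. Cyp51 (-1.07), Fdft1 (-0.91) and Sqle (-0.88) were lower without the shape, since segment 1 was no higher than a middle segment. Without the 2 arrays high in other tissue markers 6 of the 17 were lower. Fatty acid synthesis had 4 lower genes of 15, none a dip, and 1 without those arrays; Scd2, a fatty acid desaturase, was at 5.22 to 6.33 in segments 1 to 3 and 7.94 to 9.35 in segment 4. The Msmo1 promoter (RefSeq, GRCm38.p6, chr8:64733529-64733828, minus strand) is shown with its CCAAT box in capitals:
Msmo1: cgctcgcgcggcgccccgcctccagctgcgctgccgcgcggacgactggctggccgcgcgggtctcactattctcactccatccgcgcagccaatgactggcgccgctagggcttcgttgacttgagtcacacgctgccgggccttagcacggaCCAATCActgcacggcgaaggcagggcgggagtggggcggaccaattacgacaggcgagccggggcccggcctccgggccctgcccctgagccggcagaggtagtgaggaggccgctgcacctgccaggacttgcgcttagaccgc
CCAAT letters (CCAATCA or CCAATGG) were in 11 of 17 windows of the cholesterol synthesis genes (64.7%) and 13 of 24 windows of the proliferation markers (54.2%), against 14.2% of all windows, 17.9% of windows of dips and 15.6% of windows of peaks.

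In all, 13 motifs were searched on both strands in the windows of 300 bases. TATA letters (TATAAA) were in 7.48% of windows of peaks, 9.17% of windows of dips and 9.45% of all windows. For the caudal homeobox letters (TTTATNG), known from CDX factors of the gut, the shares were 4.08%, 7.34% and 7.93% in the same order. The sterol response element (TCACNCCAC) was in 3.4% of windows of peaks, 0.459% of windows of dips, 0 of 17 windows of the cholesterol synthesis genes and 1.18% of all windows. HNF4 letters (CAAAGTCCA or CAAAGTTCA) and the GATA letters AGATAAG were each in under 3% of the windows of peaks, of dips and of all genes. So were longer motifs, given here by name: HNF1, NRF1, YY1, CLEAR (which contains the E box) and a direct repeat bound by nuclear receptors. Matches are letters in a window and not evidence of binding.

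Fat absorption ran higher in the middle. Of 30 measured genes for fat digestion and chylomicron assembly, 10 were higher, where 1.94% of all genes were. None was lower, and the median was 0.24. The peaks were Creb3l3, a transcription factor for lipid genes (0.54, adjusted p = 0.039), and Pla2g12b, which helps load lipoproteins with lipid (0.40, adjusted p = 0.00188). Pla2g12b was at 11.18, 11.26 and 11.29 in segment 2 and 11.24, 11.45 and 11.21 in segment 3, against 10.77, 11.07 and 10.99 in segment 1 and 10.61, 10.84 and 10.93 in segment 4, with no overlap. The other 8, among them Fabp1 (1.30), a fatty acid-binding protein, Cd36 (1.30), a fatty acid receptor, Apoc3 (0.87), Apoa4 (0.66) and Mttp (0.32), of lipoprotein assembly, lacked the shape. Fabp1 was at 13.39 to 14.15 in the middle and 13.87 to 14.03 in segment 1, but at 9.12, 11.32 and 12.75 in segment 4. With each wild-type array left out in turn, Creb3l3 and Fabp1 kept their calls in 2 of 12 fits and Cd36 in 4. Pla2g12b, Apoc3, Apoa4 and Mttp kept theirs in all 12. Without the 2 arrays high in other tissue markers 5 of the 30 were higher. Cd36 is made by fat cells too, and segment 2 replicate 3 was the array high in fat cell markers; its difference was 0.96 (adjusted p = 0.20) without the 2 arrays.

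The study's description opens with cholesterol absorption, which it assigns to the jejunum. Npc1l1, the brush border cholesterol importer, did not pass the test: it averaged 12.84 in segment 2 and 13.09 in segment 3, against 12.35 in segment 1 and 12.94 in segment 4 (0.32, SE 0.12, adjusted p = 0.13). Abcg5 and Abcg8, which return sterols to the lumen, differed by 0.32 and 0.55 (adjusted p = 0.20 and 0.094), and Abca1, a sterol exporter, by 0.99 (adjusted p = 0.061). Of 13 measured sterol uptake and export genes 2 were called, where 3.94% of all genes were, and none without the arrays high in other tissue markers. Npc1, which moves cholesterol out of lysosomes, was a peak (0.65, adjusted p = 0.036), and Scarb1, a lipoprotein receptor, was lower through segment 1 (-1.05, adjusted p = 0.019). Gramd1b and Gramd1c, carriers of cholesterol from the plasma membrane to the endoplasmic reticulum, were peaks named after their values were seen. Gramd1b was at 8.64, 8.55 and 8.57 in segment 2 and 9.03, 8.89 and 8.67 in segment 3, against 7.74, 7.73 and 8.26 in segment 1 and 7.56, 7.39 and 8.35 in segment 4. The groups did not overlap (0.89, SE 0.16, adjusted p = 0.00347). Gramd1c differed by 0.69 (adjusted p = 0.00473).

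Sugar uptake leaned the same way, with 5 of 9 measured genes higher and none lower (median 0.62). For this and the lists below, the shares over all genes were 1.94% higher and 2.0% lower. Slc5a4b was the peak among them. Lct, lactase (1.03), and Slc2a2, a basolateral sugar carrier (0.97), lacked the shape because segment 1 was as high as the middle. With each wild-type array left out in turn, Lct kept its call in 1 of 12 fits, and Slc2a2 and Slc5a4b in 3. Without the 2 arrays 2 of the 9 were higher; without segment 4 replicate 3, 7 were. Amino acid and peptide transporters were mixed, with 3 higher and 1 lower of 21; the peak was Slc43a2 (0.45, adjusted p = 0.00832). Glud1, glutamate dehydrogenase (0.74, adjusted p = 0.039), and Odc1, which starts polyamine synthesis (0.52, adjusted p = 0.043), were peaks among 11 genes around citrulline and arginine; neither was called without the 2 arrays. Among 48 cytochrome P450 genes 4 were higher and none lower, with Cyp4v3 (0.74, adjusted p = 0.014) and Cyp4b1 (0.65, adjusted p = 0.029) as peaks; none was higher without the 2 arrays and 7 were without segment 4 replicate 3. Aqp1, a water channel, was a peak without overlap, at 10.54 to 11.31 in the middle and 9.51 to 10.40 at the ends (0.81, adjusted p = 0.016). It was not called without the 2 arrays, and lost its call without segment 2 replicate 2 or segment 3 replicate 2.

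Bile acid genes were lower in the middle through the distal end. Slc10a2 was at 4.33, 4.77 and 4.38 in segment 2 and 7.58, 6.90 and 6.69 in segment 3, against 4.15, 4.45 and 4.60 in segment 1 and 11.53, 11.13 and 11.40 in segment 4. The gene rose from segment 3 onward, and its difference of -2.10 (SE 0.17, adjusted p = 6.06e-07) carried no dip. The same held for Fabp6, the ileal bile acid-binding protein (-1.29), Nr1h4, the bile acid receptor FXR (-1.15), and Slc51a, a basolateral bile acid exporter. These 4 were the called genes of 15, where 2.0% of all genes were lower, and none was higher. Among intestinal hormones, Gip (1.07) and Nts (1.21) were higher without the shape: Nts was low in segment 1 alone (7.87 to 9.12), and Gip was low in segment 4 alone (7.64 to 9.31).

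**Figure D4:**
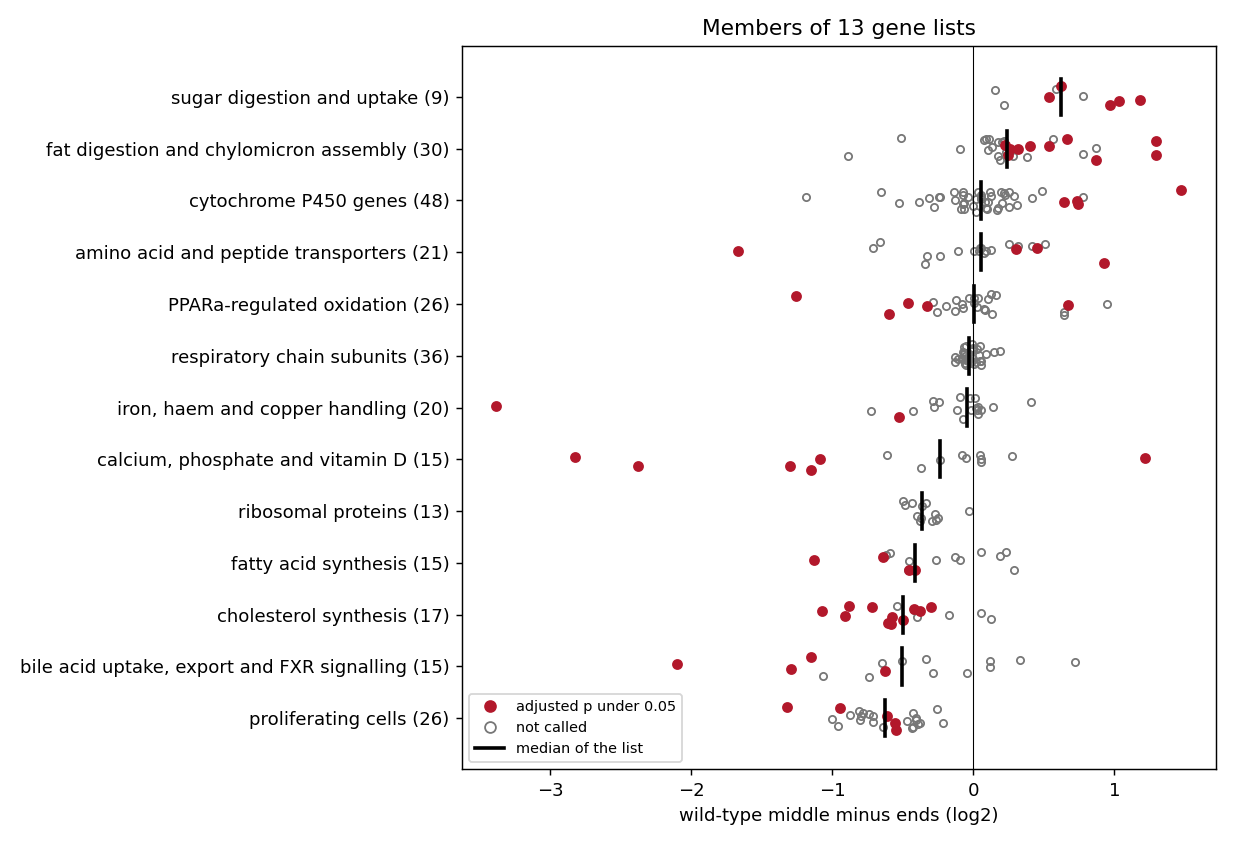
Wild-type middle minus ends on the log2 scale for the measured members of 13 gene lists (number measured in parentheses); red, adjusted p under 0.05; open grey, not called; bars, list medians. Members of the sugar list lie above 0 throughout, and proliferation markers lie below 0 throughout, with a median of -0.62.

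The same difference in the Amacr-/- arrays, which share no array with the wild-type ones, gave 253 higher genes (1.66%) and 175 lower genes (1.15%). Of the wild-type peaks, 145 of 149 had the same sign in the knockout and 74 were called there (49.7% of the peaks and 29.2% of the knockout's higher genes). Of the dips, 199 of 204 had the same sign and 46 were called (22.5% of the dips and 26.3% of the knockout's lower genes). The median difference of the peaks was 0.33 in the knockout and 0.41 in the wild-type; that of the dips was -0.25 and -0.46. The difference was smaller in the knockout for 103 peaks and 185 dips, in genes that were chosen by their wild-type values. Among the knockout arrays, segment 3 replicate 3 stood 2.47 above the mean of all arrays in fat cell markers, 1.56 in Peyer patch epithelium, 1.45 in B cell and 1.36 in fibroblast markers. Segment 2 replicate 1 was 1.93 above the mean of all arrays in smooth muscle markers and segment 1 replicate 3 was 1.39 above it in exocrine pancreas markers. With marker means as covariates, 101 genes were higher and 74 lower in the knockout. The proliferation markers had a median of -0.25 in the knockout, with none called, and the cholesterol synthesis genes -0.33, with 5 of 17 lower. For the test of the difference between genotypes limma called 0 genes; 563 of all genes and 55 of the peaks and dips were at an unadjusted p under 0.05.

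Single genes showed the range. Npl was at 9.25 to 10.01 in the middle of the knockout intestine and 5.75 to 7.73 at its ends, a difference of 3.07 (SE 0.36) in the knockout and 2.36 in the wild-type. Slc13a1 was at 10.81, 9.98 and 11.93 in segment 2 and 11.07, 11.34 and 11.92 in segment 3 of the knockout, against 12.42, 13.35 and 13.10 in segment 1 and 13.37, 13.03 and 13.31 in segment 4. Its dip was -1.92 (SE 0.26) in the knockout and -3.26 in the wild-type; the genotype difference of 1.34 had an unadjusted p of 0.00143 and an adjusted p of 0.99. Rab30 had no difference past the threshold in the knockout (-0.03, adjusted p = 0.99), against 1.30 in the wild-type, with an unadjusted p of 0.00737 for the genotype difference. The scatter of both differences shows peaks and dips on the same side of 0 with few exceptions.

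**Figure D5:**
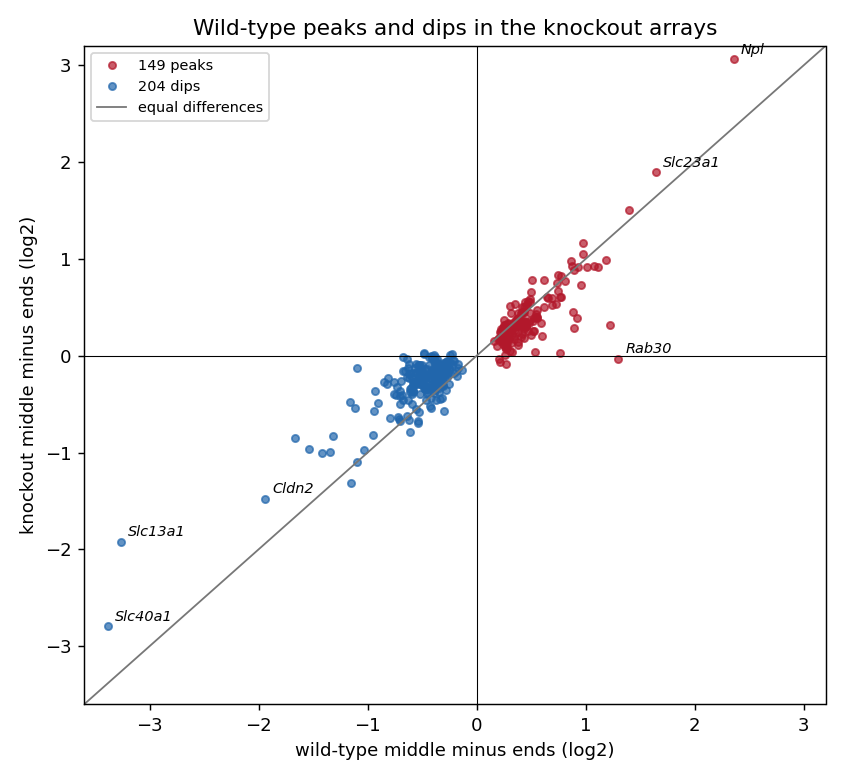
Middle minus ends on the log2 scale in the knockout arrays (vertical) against the wild-type arrays (horizontal) for the 149 wild-type peaks (red) and 204 dips (blue); the grey line marks equal differences. Of these, 145 peaks and 199 dips have the same sign in both genotypes, and Rab30 lies at -0.03 in the knockout.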

How the data were processed

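Biotin-labelled total RNA was measured on one-colour arrays, 1 per sample. The log2 values were used as the authors deposited them; the submitters' processing notes name RMA without a version. This method quantile-normalizes arrays, which removes differences in total RNA and compresses low values; the log base is not stated, and log2 is what RMA returns. Of 16556 probe sets, 15270 name 1 gene; for 3 genes with several, the brightest was kept, leaving 15267. No filter was applied.

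Genes were fitted with limma 3.58.1 in R 4.3.3 (lmFit, eBayes) over the 24 arrays, 1 coefficient for each of the 8 groups (16 residual degrees of freedom, prior 3.35), with Benjamini-Hochberg adjustment and calls at 0.05. The test at all 4 boundaries takes the largest p of 2 minus 1, 3 minus 1, 2 minus 4 and 3 minus 4. The steps were tested on simulated data with independent noise in each array. Correlated arrays and arrays high in other tissue markers were not simulated. The precision is limited by 3 arrays per group.

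The comparison, the gene lists and the alternatives were chosen with earlier results of these data known. Named were the 12 largest peaks and dips, genes called at all 4 boundaries, and up to 4 called members with the shape per list (2 by size where a list had none); clone and locus names were passed over. Other genes named, and 4 lists said to be made later, were chosen after their values were seen. Lists are described by counts and medians, without a set test. Promoters were matched by gene number to RefSeq (GRCm38.p6).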

Additional observations from a re-analysis of the deposited data

How the results depend on the processing

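The counts are given as higher, lower, peaks and dips, where 296, 305, 149 and 204 were reported. Wild-type arrays alone, with no block, gave 189, 281, 96 and 185, and knockout arrays alone gave 113 lower genes in the knockout, against 175. Array weights gave 1042, 1320, 639 and 933, 263 lower in the knockout and 1 gene for the genotype difference. Leaving out the 2 arrays high in other tissue markers gave 119, 115, 56 and 53, and marker means as covariates gave 97, 107, 44 and 49, with 101 higher and 74 lower genes in the knockout; no dip then passed all 4 boundaries (0 under both). Median centring gave 234 peaks. A margin of 0.5 in the shape left 13 peaks and 13 dips.

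With each wild-type array, or all 4 of a replicate number, left out, higher genes ranged from 15 to 518, lower from 27 to 694, peaks from 10 to 313 and dips from 9 to 574, dips at all 4 boundaries from 0 to 1 and genes with a genotype difference from 0 to 1. For higher genes, lower genes, peaks and dips, the low ends came without replicate 1 or 2 and the high ends without replicate 3. Dips at all 4 boundaries were 0 without replicate 1 or 3. Of 120 called genes followed through the alternatives, none changed sign. Some called genes named in passing, such as Slc51a and Lrba, were not among them.

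The labels number the replicates 1 to 3 in every segment without saying that a number is 1 mouse. Deviations of same-numbered wild-type arrays correlated at -0.29 to 0.52, with a median of 0.27 and 10 of 18 pairs over 0.1, against a median of -0.23 for other pairs. All pairs of replicate 1 lay between 0.39 and 0.52, and 6 of the 12 arrays correlated best with their own number. Differently numbered arrays correlated too. Segment 1 replicate 3, segment 2 replicate 2, segment 3 replicate 2 and segment 4 replicate 3 correlated at 0.20 to 0.45 in every pair. The remaining arrays of replicates 2 and 3 did so among themselves at 0.10 to 0.42. Since not every same-numbered pair was over 0.1, the numbers were not taken as pairing. Differences, blocks and omissions by replicate number follow the labels, and for replicates 2 and 3 they mix these sets. Whether a set is 1 mouse was not tested. The main fit thus treated arrays as independent, although each intestine gave 4 segments and arrays of different segments can share a mouse. A replicate block gave 382, 433, 203 and 271 with 470 of the 601 calls and 103 of the 120 named calls kept, a random block 409, 424, 218 and 274. With 1 difference per number the counts were 1, 13, 1 and 5, and 98 higher and 61 lower genes in the knockout. The cause of these changes was not tested.

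With 3 arrays per group the precision is limited, and a gene that missed the threshold is not shown to be level along the intestine.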

Other observations

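A few immune genes were dips, where 1.34% of all genes were dips and 3.94% were called. Most markers in these lists were not called. Cd8b1, a chain of the CD8 coreceptor of T cells, was a dip at 5.01 to 5.64 in the middle and 5.68 to 6.15 at the ends, without overlap (-0.68, SE 0.12, adjusted p = 0.00348), the 1 called gene of 20 T cell markers. Ccl9, a chemokine of the epithelium over Peyer patches, was a dip of -0.68 (adjusted p = 0.020), 1 of 8 such markers, and Cd14, a receptor for bacterial lipopolysaccharide, of -0.35 (adjusted p = 0.042), 1 of 16 macrophage and dendritic cell markers; neither stayed called without the arrays high in other tissue markers. Of 14 B cell markers, 12 genes of MHC class II presentation, 10 mast cell and 13 neutrophil and eosinophil markers none was called, with medians of -0.44, -0.23, 0.06 and 0.02; the second was -0.07 without those arrays. The B cell marker mean ranged from -0.71 to 0.33 in middle arrays and from -0.54 to 1.30 in end arrays.

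Npas2, a clock transcription factor, was a peak without overlap, at 7.33 to 7.71 in the middle and 6.83 to 7.32 at the ends (0.45, adjusted p = 0.027). It was the only called gene of 18 clock genes, where 3.94% of all genes were called. Npas2 was not called without the arrays high in other tissue markers, and lost its call without any 1 of 6 of the 12 arrays. Tmem86a, an enzyme of plasmalogen breakdown, was at 11.12 to 11.32 in the middle and 9.70 to 10.84 at the ends (0.87, SE 0.11, adjusted p = 0.000295), and Oplah, 5-oxoprolinase of the glutathione cycle, at 6.48 to 6.82 and 5.69 to 6.38 (0.62, adjusted p = 0.012); both were named after their values were seen.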
